A study of Mus musculus with 2 samples.

Results

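The genes described here encode enzymes that make and break down leukotrienes and prostaglandins, the oxygenated lipid mediators known as eicosanoids. They were chosen by name: Alox5, Alox5ap, Lta4h and Ltc4s for leukotrienes, Ptgs1, Ptgs2, Ptges, Tbxas1 and Hpgds for prostaglandins and thromboxane, and Hpgd for prostaglandin degradation. Of the 10 genes, 9 had an array feature annotated to that gene alone, out of 22180 genes with such a feature in the whole series. Ptgs1, which encodes the constitutive cyclooxygenase, had no such feature and is not analysed here.

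The 2 arrays measured RNA of alveolar macrophages, which reside in the air spaces of the lung and were isolated by flow cytometric sorting from mice aged 8 to 10 weeks. One array was from mice labelled Lysm-Cre Ssu72fl/fl, which carry loxP-flanked Ssu72 alleles together with Cre, and the other from mice labelled Lysm-Cre, which carry Cre as well. Lysm-Cre drives recombination from the lysozyme 2 locus, which is active in macrophages and neutrophils and in some alveolar type 2 cells, and Ssu72 encodes a phosphatase of the RNA polymerase II tail. How many mice each array stands for is not stated in the sources used here. Each genotype had 1 array, so the genotypes could not be tested against each other, no p-value or SD is printed, and precision is limited by this number of arrays.

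Both branches start from arachidonic acid, which phospholipases release from membranes. In the leukotriene branch, the lipoxygenase Alox5 works with its membrane helper Alox5ap to make leukotriene A4, which Lta4h turns into the neutrophil attractant leukotriene B4 and Ltc4s into the cysteinyl leukotriene C4. In the prostaglandin branch, the cyclooxygenases Ptgs1 and Ptgs2 make prostaglandin H2, from which Ptges makes prostaglandin E2, Hpgds prostaglandin D2 and Tbxas1 thromboxane A2. Hpgd oxidises and thereby inactivates prostaglandins, and the lung is a main site of this clearance. Alveolar macrophages are known as producers of leukotrienes.

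Values are the deposited log2 signals, and each difference is the signal of the Lysm-Cre Ssu72fl/fl array minus that of the Lysm-Cre array. Genes with a signal above a floor of 4.65 on either array, which is the median of all values on both, were compared, 13015 in all. All 9 measured enzymes lay above the floor on both arrays. Scatter between genes is the only spread these arrays give. Each difference was therefore set beside those of the 500 compared genes nearest in mean signal, called genes of like level, by their median and their 5th to 95th percentile. That range mixes measurement error with differences between the animals and genotypes behind the arrays, which 2 arrays cannot separate.

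The difference between the arrays changed with the signal level. Its median over all features was 0.0080 at mean levels 4 to 5, -0.037 at 5 to 6, -0.28 at 6 to 7 and -0.44 at 7 to 8. Where this matters a level-adjusted difference is given, from which the trend with level, fitted as a smooth curve, was subtracted. Ssu72 itself read 4.998 on the Lysm-Cre Ssu72fl/fl array and 4.862 on the Lysm-Cre array. Whether its probes lie in the deleted part is not stated in the sources used here, so this value does not check the label, and every direction rests on the label alone. Lyz2, the lysozyme 2 gene, read 9.74 on the Lysm-Cre Ssu72fl/fl array and 10.23 on the Lysm-Cre array. Its difference of -0.49 (level-adjusted -0.24) lay inside the range of -0.81 to 0.30 for genes of like level. Of 12 alveolar macrophage markers 10 had a feature, and all 10 lay above the floor on both arrays, the highest being the chitinase-like gene Chil3 at 9.30 on the Lysm-Cre Ssu72fl/fl array and 9.42 on the Lysm-Cre array. All 8 measured interstitial macrophage markers and all 8 alveolar type 2 markers were above the floor too, so this does not single out alveolar macrophages.

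Among the enzymes, Hpgd and Ptgs2 were lower on the Lysm-Cre Ssu72fl/fl array by more than nearly all genes of like level, and Alox5ap was lower by as large an amount at a level where many genes were lower. Ltc4s was slightly higher, as was Alox5 at its brighter feature but not at its second, and the remaining 4 differed little. No enzyme reached a 2-fold difference, which 0.115% of all compared genes did. On the Lysm-Cre array Lta4h, Ptgs2, Ptges, Tbxas1 and Hpgds stood only 0.14 to 0.85 above the floor. For them a 2-fold lower value could not have been seen. Hpgd and Alox5ap were at least 1.5-fold lower, which held for 1.37% of all compared genes. Of the 9 enzymes 7 were lower and 2 higher, with a median difference of -0.067, whereas 51.9% of all compared genes were lower and their median was -0.0068. When level-adjusted, again 7 of the 9 were lower, with a median of -0.020, beside 46.5% of all compared genes and a median of 0.010. Direction alone says little here, since 48.6% of the 438 genes with 2 compared features had differences of opposite sign. The plot of signals on both arrays shows Hpgd and Alox5ap as the widest pairs.

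**Figure D1:**
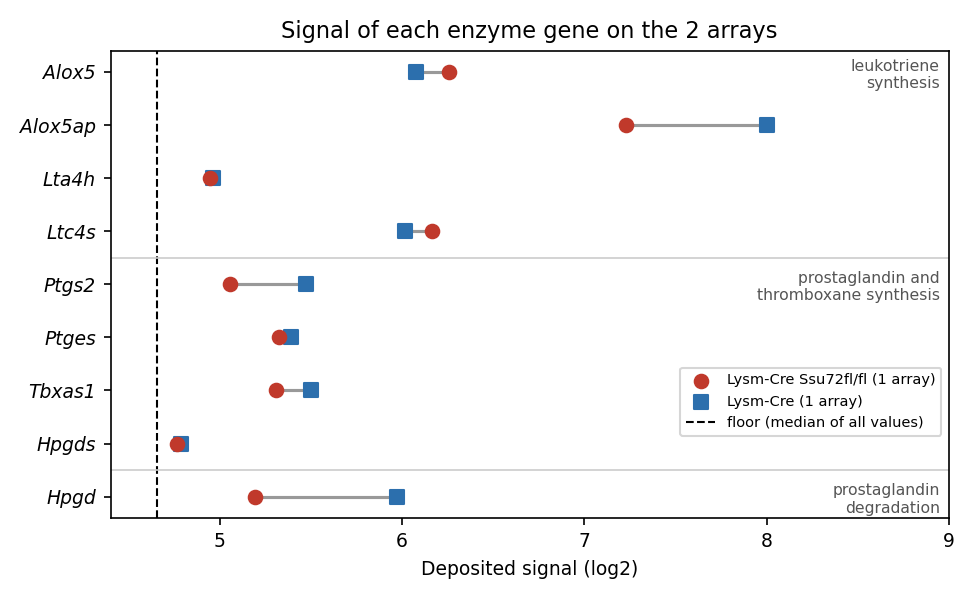
Deposited log2 signal (x axis) of the 9 measured enzyme genes, with a red circle for the Lysm-Cre Ssu72fl/fl array and a blue square for the Lysm-Cre array, 1 array each and no error bars. The dashed line is the floor of 4.65; Hpgd and Alox5ap show the widest gaps, both with the circle on the lower side, and Alox5 and Ltc4s have the circle on the higher side.

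Hpgd, the gene of 15-hydroxyprostaglandin dehydrogenase and the first enzyme of prostaglandin inactivation, read 5.19 on the Lysm-Cre Ssu72fl/fl array and 5.97 on the Lysm-Cre array. The difference of -0.78 is a 1.71-fold lower signal. None of the 500 genes of like level, whose mean signals ran from 5.50 to 5.67, was lower by as much. Their median difference was -0.068 and their 5th to 95th percentile ran from -0.42 to 0.32. Among all 13015 compared genes the difference of Hpgd was the 50th lowest. Its rank by signal among the 22180 genes was 3411 on the Lysm-Cre Ssu72fl/fl array and 987 on the Lysm-Cre array, where rank 1 is the brightest. Such ranks also carry the brightness of each gene's own probes, so they place a gene only roughly. The level-adjusted difference of Hpgd was -0.69. Of the 4877 compared genes with a mean level from 5 to 6.5, 1.64% were at least 1.5-fold lower.

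Ptgs2, the inducible cyclooxygenase, read 5.06 on the Lysm-Cre Ssu72fl/fl array and 5.47 on the Lysm-Cre array. Its difference of -0.42, a 1.34-fold lower signal, lay below the range of genes of like level, which was -0.36 to 0.31, and 16 of those 500 genes were lower still. The level-adjusted difference was -0.38. Ptgs2 ranked 4674 on the Lysm-Cre Ssu72fl/fl array and 2127 on the Lysm-Cre array. Its signal on the Lysm-Cre array stood 0.82 above the floor, so a 2-fold lower value could not have been seen there.

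Hpgd and Ptgs2 were the enzymes below the range of genes of like level, and their RefSeq promoter sequences are shown for that reason. Of the 10 enzymes 9 had an entry in the promoter table, and Alox5ap had none. Each sequence runs 5′ to 3′ on the gene's strand from 150 bases before the annotated start to base 30 from it. The Ptgs2 stretch is chr1:150099881-150100060 and the Hpgd stretch chr8:56294402-56294581, both on the + strand of GRCm38.p6. Capitals mark the letters TTGCGCAA, a palindrome bound by C/EBP factors, CACGTG, the letters of an E box, and TATAAA, the letters of a TATA box. In Ptgs2 the first of these begins 69 bases before the annotated start and CACGTG begins at base 17 from it. In Hpgd TATAAA begins at base 5 from the annotated start, whereas a working TATA box lies upstream of the start it serves, so the letters are shown with no claim of that role.
Ptgs2: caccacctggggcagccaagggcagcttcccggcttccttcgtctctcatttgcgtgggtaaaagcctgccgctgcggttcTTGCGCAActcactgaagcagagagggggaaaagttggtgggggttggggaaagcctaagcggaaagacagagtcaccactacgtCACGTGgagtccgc
Hpgd: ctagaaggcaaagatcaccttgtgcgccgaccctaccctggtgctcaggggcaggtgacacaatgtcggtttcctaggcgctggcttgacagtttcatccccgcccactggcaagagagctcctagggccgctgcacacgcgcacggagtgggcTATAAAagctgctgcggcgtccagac

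The 3 motifs were chosen after these sequences had been read, were searched on both strands and did not overlap one another. In windows of 280 bases, which start 250 bases before the annotated start, TTGCGCAA occurred in 0.180% of 32851 promoters and CACGTG in 6.79%, and among the enzymes both were found in Ptgs2 alone. TATAAA occurred in 13.1% of promoters, and among the enzymes in Hpgd and Tbxas1. The Hpgd and Ptgs2 windows shared none of the 3 motifs. A match describes the letters and is no evidence of binding.

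The other prostaglandin and thromboxane synthases differed little. Tbxas1, the thromboxane synthase, read 5.31 on the Lysm-Cre Ssu72fl/fl array and 5.50 on the Lysm-Cre array. The difference of -0.20 (level-adjusted -0.14) lay well inside the range of genes of like level, -0.43 to 0.33. Ptges, the inducible prostaglandin E synthase, read 5.32 on the Lysm-Cre Ssu72fl/fl array and 5.39 on the Lysm-Cre array. The difference was -0.067, next to a median of -0.036 for genes of like level. Hpgds, the haematopoietic prostaglandin D synthase, read 4.77 on the Lysm-Cre Ssu72fl/fl array and 4.79 on the Lysm-Cre array, a difference of -0.022. Its signal was at most 0.14 above the floor on either array, which leaves little room for a lower level to be seen. All 5 measured prostaglandin-branch genes, Hpgd among them, were thus on the lower side, with a median of -0.20 (level-adjusted -0.14). Only Hpgd and Ptgs2 of them lay below the range for their level. Of all compared genes 51.9% were lower, and 46.5% when level-adjusted.

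In the leukotriene branch the differences went both ways. Alox5ap, the protein that presents arachidonic acid to the lipoxygenase, read 7.23 on the Lysm-Cre Ssu72fl/fl array and 8.00 on the Lysm-Cre array. It was among the brighter genes on both, at rank 183 on the Lysm-Cre Ssu72fl/fl array and 136 on the Lysm-Cre array of 22180 genes. Its difference of -0.77, a 1.71-fold lower signal, was the 56th lowest of all compared genes. Genes of like level, which for so bright a gene ran from 6.29 to 8.89, had a median difference of -0.34 and a 5th to 95th percentile of -0.83 to 0.33. Alox5ap lay inside that range, with 39 of the 500 genes lower. Of 266 compared genes with a mean level over 7, 25.9% were at least 1.5-fold lower, and the level-adjusted difference of Alox5ap was -0.30. A second Alox5ap feature read 4.62 on the Lysm-Cre Ssu72fl/fl array and 4.60 on the Lysm-Cre array, below the floor on both, and gives no comparison.

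Alox5, the arachidonate lipoxygenase itself, read 6.26 on the Lysm-Cre Ssu72fl/fl array and 6.08 on the Lysm-Cre array at its brighter feature. The difference was 0.18, at a level where the median gene differed by -0.16, and the level-adjusted difference was 0.39. The range of genes of like level was -0.63 to 0.40, so the value was inside it, with 66 of the 500 genes higher. The second Alox5 feature went the other way, at 5.48 on the Lysm-Cre Ssu72fl/fl array and 5.83 on the Lysm-Cre array, a difference of -0.35 (level-adjusted -0.25). With the features averaged the difference was -0.085. The direction of Alox5 therefore depended on the feature used.

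Ltc4s, the leukotriene C4 synthase, read 6.16 on the Lysm-Cre Ssu72fl/fl array and 6.02 on the Lysm-Cre array. Its difference of 0.15 (level-adjusted 0.34) was inside the range of -0.62 to 0.40 for genes of like level, with 79 of the 500 genes higher. Lta4h, the leukotriene A4 hydrolase, read 4.94 on the Lysm-Cre Ssu72fl/fl array and 4.96 on the Lysm-Cre array, a difference of -0.016 close to the floor. The branch thus held 2 higher and 2 lower genes, with a median of 0.066 (level-adjusted 0.17). With features averaged it held 3 lower and 1 higher, and the median turned to -0.050. On the plot of difference against level, Hpgd stands clearly below the lower dotted line, Ptgs2 lies close to that line, and Alox5 and Ltc4s above the running median.

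**Figure D2:**
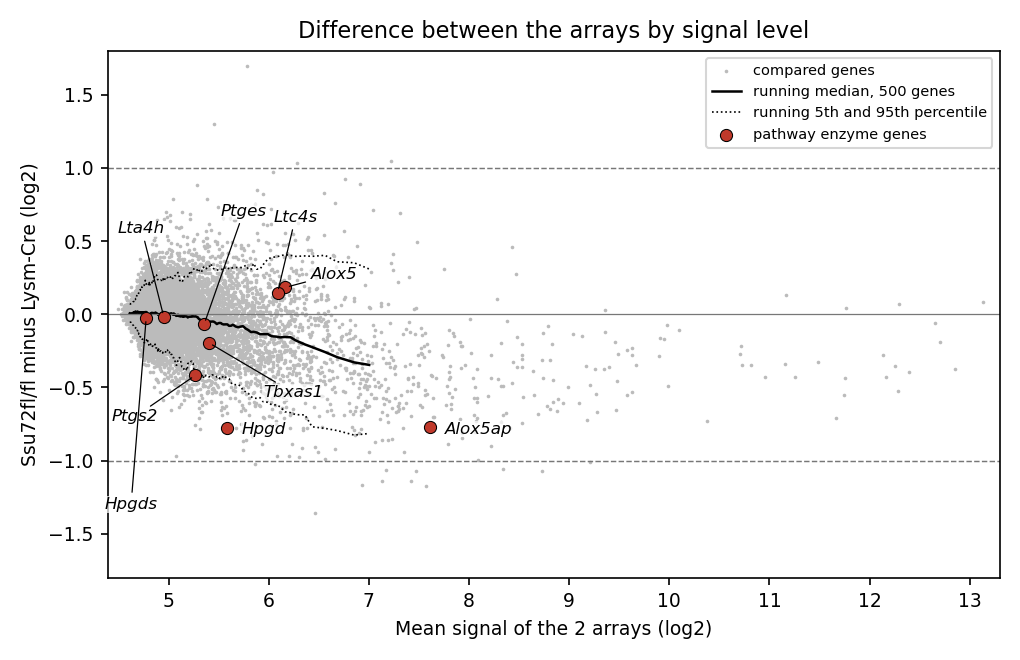
Difference, Lysm-Cre Ssu72fl/fl minus Lysm-Cre (y axis, log2), against the mean signal of both arrays (x axis, log2) for 13015 compared genes (grey) and the 9 enzymes (red). The solid line is the running median and the dotted lines the running 5th and 95th percentiles over 500 genes, dashed lines mark a 2-fold difference, and Hpgd at -0.78 lies below all 500 genes of its level.

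Hpgd and Alox5ap were both still at least 1.5-fold lower when each array was centred on its median. Alox5ap was no longer so after quantile normalization or removal of the level trend, and Hpgd was so under both. After quantile normalization the differences were -0.69 for Hpgd, -0.38 for Ptgs2 and -0.35 for Alox5ap, so that Hpgd was the only enzyme still at least 1.5-fold different. Alox5 and Ltc4s became 0.40 and 0.34. The plot of differences by processing shows that Hpgd and Ptgs2 stayed lower, while Alox5 crossed 0 when its second feature was used.

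**Figure D3:**
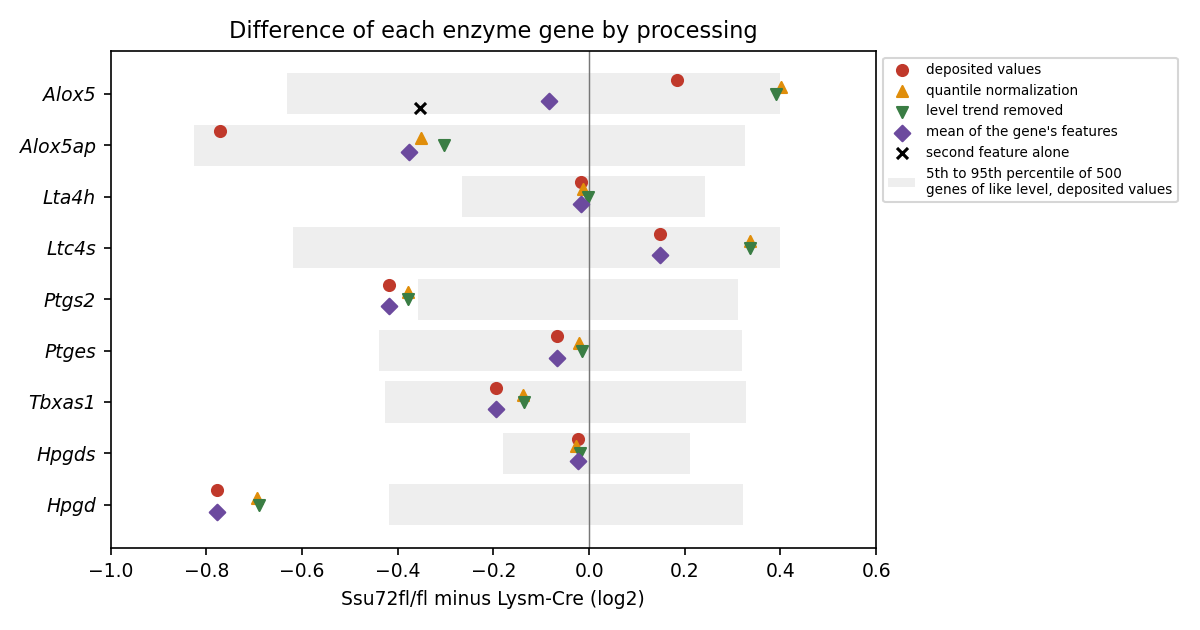
Difference, Lysm-Cre Ssu72fl/fl minus Lysm-Cre (x axis, log2), of each enzyme gene under 4 ways of processing and, for Alox5, from its second feature alone (cross). Grey bars span the 5th to 95th percentile of deposited differences of the 500 genes of like level, also where the points are from other processing. Hpgd lies left of its bar in every setting drawn, but it has 1 feature, so its averaged point repeats the deposited value. Alox5ap moves from -0.77 to -0.30 when the level trend is removed.

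The surrounding pathway was read from lists of genes for arachidonic acid release, further synthases, further lipoxygenases, leukotriene processing and clearance, and receptors. No gene of these 5 lists was 2-fold or 1.5-fold different. Of all compared genes 0.115% were 2-fold different and 1.37% were at least 1.5-fold lower. Of 10 genes for arachidonic acid release 8 were compared, 6 higher and 2 lower, with a median of 0.056. The cytosolic phospholipase Pla2g4a, the main enzyme of stimulated arachidonic acid release, was the lowest of them, at 4.80 on the Lysm-Cre Ssu72fl/fl array and 5.04 on the Lysm-Cre array (-0.25, just inside the range of -0.25 to 0.23 for its level). The lysosomal phospholipase Pla2g15 followed at -0.094 (level-adjusted 0.093), and Pla2g12a (0.20) and Pla2g6 (0.083) were highest.

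Of 7 other prostanoid synthases and reductases 4 were compared, from Ptgds (-0.13), the lipocalin-type prostaglandin D synthase, and Prxl2b (-0.081) to Ptges2 (0.17) and the carbonyl reductase Cbr1 (0.030). Their median was -0.025. Of 6 other lipoxygenases 3 were compared, Aloxe3 (-0.0096), Alox8 (0.041) and Alox12 (0.065), and Alox15 was below the floor on both arrays. These genes showed only small differences, all inside the range for their level.

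The list of 13 genes of leukotriene processing, inactivation and transport also holds prostaglandin genes, among them Ptgr1 and Slco2a1. Of the 13 genes 8 were compared, 3 lower and 5 higher, with a median of 0.057. Cyp4f18, a cytochrome P450 that hydroxylates leukotriene B4 in mouse myeloid cells, read 4.80 on the Lysm-Cre Ssu72fl/fl array and 5.15 on the Lysm-Cre array. Its difference of -0.34 (level-adjusted -0.33) was below the range of -0.24 to 0.25 for its level, and it was the only compared gene of the 5 lists outside that range. Dpep2, a dipeptidase that converts leukotriene D4 to E4, was next lowest (-0.28), but its level-adjusted difference was -0.053. Dpep1 (0.18) and the microsomal glutathione transferase Mgst3 (0.17) were highest. The prostaglandin reductase Ptgr1 (0.091) and the prostaglandin transporter Slco2a1 (0.061), which serve clearance, were higher by small amounts.

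Of 14 eicosanoid receptor genes 6 were compared, 4 lower and 2 higher, with a median of -0.099. The lowest were the prostaglandin E receptor Ptger4 (-0.18) and the prostacyclin receptor Ptgir (-0.16), and the highest the prostaglandin D receptor Ptgdr (0.17) and Ptger3 (0.12). All were inside the range for their level. The leukotriene receptor genes Ltb4r1, Cysltr1 and Cysltr2 were below the floor on both arrays. The plot by role shows these small spreads beside that of the named enzymes.

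**Figure D4:**
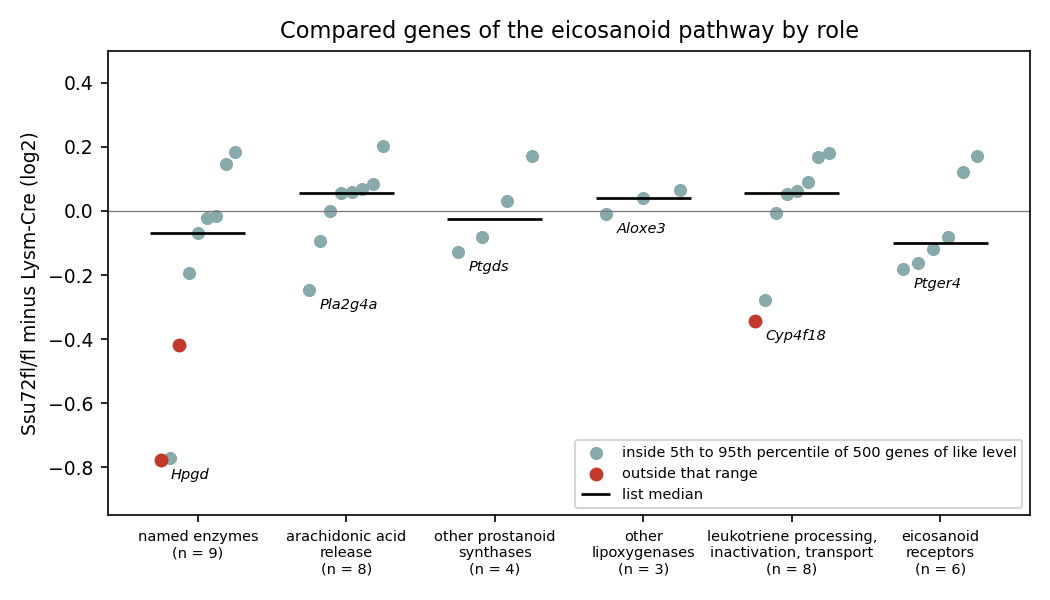
Difference, Lysm-Cre Ssu72fl/fl minus Lysm-Cre (y axis, log2), of each compared gene by role in the pathway, with a bar at the median of each list. Red points lie outside the 5th to 95th percentile of 500 genes of like level: Hpgd and Ptgs2 among the named enzymes and Cyp4f18 among the genes of leukotriene processing, inactivation and transport. The list with Cyp4f18 also holds prostaglandin genes. By definition 5% of genes of like level lie below that range.

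Markers of other cells that make or clear eicosanoids were read beside these values. For the marker counts that follow, 51.9% of all compared genes were lower, and 46.5% when level-adjusted. By definition 5% of genes of like level lie below their range. In bulk arrays fewer cells of a type and less RNA per cell cannot be told apart. Of 9 interstitial macrophage markers 8 were compared and 7 of them lower, with a median of -0.35 (level-adjusted -0.20). Their summed linear signal was 417 on the Lysm-Cre Ssu72fl/fl array and 530.2 on the Lysm-Cre array, and without the brightest member, the mannose receptor gene Mrc1, which alveolar macrophages also express, it was 281 on the Lysm-Cre Ssu72fl/fl array and 361 on the Lysm-Cre array. Mrc1 read 7.09 on the Lysm-Cre Ssu72fl/fl array and 7.40 on the Lysm-Cre array (level-adjusted difference 0.13). Cx3cr1, the fractalkine receptor gene (-0.63, level-adjusted -0.42), and the hyaluronan receptor gene Lyve1 (-0.39, level-adjusted -0.35) were below the range for their level. Of 7 monocyte markers 6 were compared and 5 lower, with a median of -0.31. Their level-adjusted median of -0.26 took Ly6c2 at its deposited value instead of the floor. Their summed signal was 252 on the Lysm-Cre Ssu72fl/fl array and 322 on the Lysm-Cre array. Nr4a1, also an immediate early gene of macrophages, was the brightest at 6.72 on the Lysm-Cre Ssu72fl/fl array and 7.20 on the Lysm-Cre array (level-adjusted difference -0.079). Without it the sum was 146 on the Lysm-Cre Ssu72fl/fl array and 175 on the Lysm-Cre array. F13a1 (-0.40) and Ly6c2, which was below the floor on the Lysm-Cre Ssu72fl/fl array alone (at least 0.11 lower), were below the range for their level. These lists moved in the same direction as Hpgd, Ptgs2 and Alox5ap, and their part in those differences was not tested. The alveolar macrophage markers were lower too, 9 of 10, with a median of -0.23 (level-adjusted -0.040) and a summed signal of 1484 on the Lysm-Cre Ssu72fl/fl array and 1736 on the Lysm-Cre array.

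Of 8 alveolar type 2 markers 6 were lower, with a median of -0.13 (level-adjusted -0.034) and a summed signal of 602 on the Lysm-Cre Ssu72fl/fl array and 726 on the Lysm-Cre array. The surfactant gene Sftpc was the brightest, at 8.35 on the Lysm-Cre Ssu72fl/fl array and 8.71 on the Lysm-Cre array. The part of this RNA in the Hpgd difference was not tested.

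Platelets are known for thromboxane synthase, and mast cells for Hpgds and Ltc4s. Of 7 platelet markers 4 were compared and 3 lower (median -0.22, level-adjusted -0.16). The summed signal of the 4 compared markers was 136 on the Lysm-Cre Ssu72fl/fl array and 154 on the Lysm-Cre array. Gp9 was brightest, at 5.47 on the Lysm-Cre Ssu72fl/fl array and 5.72 on the Lysm-Cre array, while the defining gene Pf4 was below the floor on both. Of 11 mast cell and basophil markers 4 were compared, all higher by small amounts (median 0.066), and Cpa3, Fcer1a and Ms4a2 were below the floor on both arrays. Hdc was brightest, at 4.93 on the Lysm-Cre Ssu72fl/fl array and 4.88 on the Lysm-Cre array, and the summed signal of all 11 markers was 266 on the Lysm-Cre Ssu72fl/fl array and 256 on the Lysm-Cre array. The part of platelets in the Tbxas1 value was not tested, and mast cell markers were at or near the floor on both arrays.

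Of 9 neutrophil markers 7 were compared and 6 lower, with a median of -0.056, and Ly6g and Camp were below the floor on both arrays. Csf3r was the brightest, at 5.04 on the Lysm-Cre Ssu72fl/fl array and 5.18 on the Lysm-Cre array. Of 4 eosinophil markers 2 were compared, both higher, with Epx brightest at 4.93 on the Lysm-Cre Ssu72fl/fl array and 4.76 on the Lysm-Cre array. Of 8 lymphocyte markers 3 were compared, 2 of them higher, with Cd79a brightest at 5.15 on the Lysm-Cre Ssu72fl/fl array and 4.98 on the Lysm-Cre array.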

How the data were processed

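The authors deposited 1 log2 expression value per array feature and sample. That the scale is log2 was inferred from the range, 4.23 to 13.5. MAS5 is named in the submitters' processing notes, with no step attached to it. Background correction, scaling and genome build are not stated in the sources used here, and a scale compressed by an offset would shrink every difference, most at low signal.

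Of 33793 features, 23521 carried 1 gene symbol in the platform annotation and were used; 23328 took their symbol from RefSeq through the Entrez identifier. Each gene took its feature with the highest mean. In the differences of compared genes, values under the floor were set to it, except that the level-adjusted monocyte median took Ly6c2 at its deposited value. Summed signals, averages of features, the level curve and the medians by level over all features used deposited values, also those under the floor. The level curve was a lowess (span 0.3, statsmodels 0.14.6) on medians of level bins 0.1 wide with at least 10 features. The procedure was run on simulated arrays whose planted changes lay in bright genes only and were larger than any enzyme difference reported here. That run does not show how well differences of the present size are recovered. The named genes were the 10 enzymes, up to 2 genes at each end of each pathway list, Ssu72, Lyz2, and the brightest marker of each cell type. Other genes were named after their values were seen. Members and lists were chosen with earlier results of these data known.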

Additional observations from a re-analysis of the deposited data

How the results depend on the processing

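No enzyme was 2-fold different under any of the other settings that keep the 2-fold threshold. These were median centring, quantile normalization, removal of the level trend, averaging of a gene's features, admission of features with several symbols, and floors at the 25th or 75th percentile or none. The other floors and the admitted features left each enzyme difference as it was, apart from leaving out Lta4h and Hpgds at the higher floor. Averaging could change only Alox5 and Alox5ap. These settings are therefore little check on the other enzymes. With a threshold of 1.5-fold the count was 2, Hpgd and Alox5ap. It was 1, Hpgd, after quantile normalization, with the level trend removed and with features averaged. The median difference ran from -0.20, once the higher floor had left out Lta4h and Hpgds, to -0.020 with the level trend removed, and was below 0 in each setting. The count was 7 lower and 2 higher, except 8 lower and 1 higher with features averaged and 5 lower and 2 higher with the higher floor. The leukotriene branch median, 0.066, was -0.050 with features averaged and above 0 in the other settings, and the prostaglandin branch median was below 0 in each. Alox5ap was -0.77 on the deposited scale, -0.35 after quantile normalization, -0.30 without the level trend and -0.38 with its dim feature averaged in. Alox5 was -0.085 with features averaged and -0.35 from its second feature alone, a comparison added after the data were seen. No paired analysis was possible because each genotype had 1 array, and leaving out an array leaves no comparison. Low signal limits Lta4h and Hpgds, which lay within 0.31 of the floor on both arrays. At the main floor a 2-fold lower value could also not have been seen for Ptgs2, Ptges or Tbxas1.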

Other observations

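The opposite directions of the 2 Alox5 features are common on these arrays. Of 438 genes with 2 compared features, 213 (48.6%) had differences of opposite sign. A second feature thus often went the other way, which limits what the counts of lower and higher enzymes show. The measured enzymes other than Alox5 and Alox5ap had 1 feature each, so their directions have no such check. The gap of 0.54 between the Alox5 features was wider than usual, against a median gap of 0.16, and 25 of the 438 genes, Alox5 included, had a gap at least that wide.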
